A study of Mus musculus with 10 samples.

Results

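The 36 genes described here are cell cycle and proliferation genes, found by symbol in a deposited table of read counts for 53546 genes. By textbook role, 16 of them act in S phase or in the preparation of DNA replication and 19 in G2 or mitosis (M). The remaining member, Stmn1, encodes stathmin, a microtubule-destabilising protein of dividing cells that belongs to no single phase. All 36 symbols were found in the table. Of these, 31 had enough counts to enter the test across genes, 15 of each phase plus Stmn1.

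Bulk RNA sequencing was used on CNS-associated macrophages, the resident macrophages of the meninges and perivascular spaces. The cells were sorted from the brains of individual, untreated C57BL/6N mice aged 6 to 8 weeks, and each library started from 500 pg of total RNA. Homozygous mice (genotype Mrc1-CreERT2/Mrc1-CreERT2, n = 4) carry the allele on both chromosomes, heterozygous mice (n = 3) on a single chromosome, and wild-type mice (n = 3) on neither. How the cells were gated is stated in none of the sources used here. The allele encodes CreERT2, a Cre recombinase that needs a ligand of its oestrogen receptor part to act, and its name places it at Mrc1, which encodes the mannose receptor CD206. No other allele is named for any genotype, no inducing agent was given to any group, and all mice came from the same specific-pathogen-free breeding. The comparisons ask how carrying the allele bears on the transcripts of these macrophages. Each p-value measures the spread between the individual mice sampled here, of which a genotype had 3 or 4.

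The cell cycle runs from G1 through S phase, in which DNA is copied, and G2 to mitosis. Genes needed for replication are switched on at the G1 to S transition by E2F transcription factors. Genes needed for mitosis are held back until later by the DREAM complex. This complex binds a short element called the CHR, often beside CCAAT boxes bound by NF-Y. Macrophages of the brain borders are long-lived cells that renew themselves at a low rate.

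The promoters were searched for the letters of the elements named for these 2 kinds of control. RefSeq promoter windows on GRCm38.p6, from 250 bases before to 50 bases after the annotated start, were held for 13 of the 16 S phase and 16 of the 19 G2 and M members. Both strands were searched for the CHR (TTTGAA or TTCGAA) and the NF-Y box (CCAAT). The E2F site was searched as the word TTCCCGC, the word TTGGCGC, the word TTCGCGC and the word TTGCCGC. Matches of different motifs may overlap. Below, the 250 bases before the start of 4 G2 and M genes with contrasting values and of 2 well-detected S phase genes are printed 5′ to 3′ on the gene's strand, with every match in capitals. Matches on the opposite strand read TTCAAA (CHR), ATTGG (NF-Y box) or the complement of the E2F site, and runs longer than 1 motif are overlapping matches.
Ccnb2 (chr9:70421555-70421804, minus strand): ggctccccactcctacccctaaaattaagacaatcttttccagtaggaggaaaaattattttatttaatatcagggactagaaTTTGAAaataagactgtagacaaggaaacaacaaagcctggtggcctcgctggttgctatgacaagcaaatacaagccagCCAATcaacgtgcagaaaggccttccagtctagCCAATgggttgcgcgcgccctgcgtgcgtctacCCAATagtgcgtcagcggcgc
Top2a (chr11:99024190-99024439, minus strand): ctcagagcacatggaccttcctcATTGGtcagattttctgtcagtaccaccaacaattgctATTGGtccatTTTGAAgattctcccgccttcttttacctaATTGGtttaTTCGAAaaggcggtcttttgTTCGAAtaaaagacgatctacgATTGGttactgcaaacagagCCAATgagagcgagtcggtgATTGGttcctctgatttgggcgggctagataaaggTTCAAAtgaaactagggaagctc
Ube2c (chr2:164769679-164769928, plus strand): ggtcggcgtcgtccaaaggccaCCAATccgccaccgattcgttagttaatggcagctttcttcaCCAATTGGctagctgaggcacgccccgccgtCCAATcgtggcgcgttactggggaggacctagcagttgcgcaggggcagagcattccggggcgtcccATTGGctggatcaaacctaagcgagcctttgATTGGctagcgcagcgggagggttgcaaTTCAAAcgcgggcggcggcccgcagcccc
Cenpf (chr1:189688087-189688336, minus strand): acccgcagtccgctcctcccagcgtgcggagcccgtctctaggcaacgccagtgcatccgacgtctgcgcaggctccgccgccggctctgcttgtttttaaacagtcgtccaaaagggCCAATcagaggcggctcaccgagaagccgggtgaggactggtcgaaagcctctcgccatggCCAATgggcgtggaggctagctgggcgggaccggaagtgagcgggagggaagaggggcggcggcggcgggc
Mcm6 (chr1:128359706-128359955, minus strand): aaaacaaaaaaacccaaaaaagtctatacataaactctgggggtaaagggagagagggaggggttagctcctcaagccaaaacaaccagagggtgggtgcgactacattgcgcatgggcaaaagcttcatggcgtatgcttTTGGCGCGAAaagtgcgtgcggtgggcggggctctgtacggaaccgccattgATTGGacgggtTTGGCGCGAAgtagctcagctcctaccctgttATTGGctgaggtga
Rrm1 (chr7:102441445-102441694, plus strand): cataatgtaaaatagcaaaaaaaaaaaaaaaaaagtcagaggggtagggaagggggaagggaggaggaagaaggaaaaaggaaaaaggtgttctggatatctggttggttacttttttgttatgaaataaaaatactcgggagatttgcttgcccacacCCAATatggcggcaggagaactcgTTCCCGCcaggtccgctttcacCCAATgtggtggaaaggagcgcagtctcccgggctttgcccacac
The promoter of Top2a held 4 CHR and 6 NF-Y matches and that of Ube2c 1 and 6. Ccnb2 held 2 CHR matches, of which 1 lies in the printed bases, and 3 NF-Y matches. The only CHR match of Cenpf lies after the start and is not printed. Mcm6 held no CHR and 5 E2F matches, of which 4 lie in the printed bases and overlap in longer runs. Rrm1 held 1 E2F match and no CHR.

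Over all members with a promoter, a CHR match stood in 13 of 16 G2 and M genes (81.3%) and 2 of 13 S phase genes (15.4%), beside 21.7% of all 27025 genes with a promoter. An E2F match stood in 8 of 13 S phase genes (61.5%) and 3 of 16 G2 and M genes (18.8%), beside 10.9% of all genes. The NF-Y box was held by 15 of 16 G2 and M genes (93.8%), 8 of 13 S phase genes (61.5%) and 41.1% of all genes. The 13 G2 and M genes with a CHR match all held an NF-Y box as well, a combination found in 8.61% of all genes. Further cell cycle genes outside the 36 gave a like split. A CHR match stood in 76.5% of 51 other G2 and M genes and 25.8% of 31 other S phase genes, and an E2F match in 23.5% and 67.7%. A match is a string of letters and does not show that a factor binds there.

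**Figure D1:**
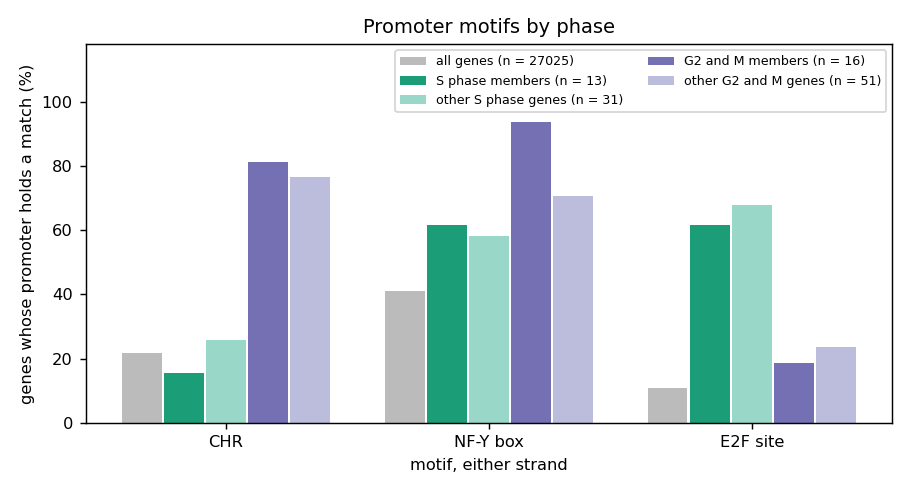
Share of genes (%) whose promoter window holds a match to the CHR, the NF-Y box or the E2F site on either strand; grey bars are all genes with a promoter and coloured bars are S phase and G2 and M genes. The CHR stands in 81.3% of the G2 and M members and 15.4% of the S phase members, and the E2F site in 18.8% and 61.5%.

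The libraries held 22986972 to 36575446 counts, and values are given as counts per 1000000 counts of the scaled library (CPM). Mrc1, the check of the labels, stood at 3062 to 3744 CPM in wild-type libraries, at 1983 to 2284 where a single copy of the allele was present, and at 441 to 541 in homozygous libraries. All 12 markers of CNS-associated macrophages had counts in all 10 libraries. Wild-type replicate 3 stood apart for many of the genes below, so group values and fold changes that it moves much are also given without it.

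Detection differed between the phases. A count of 0 allows up to 3 counts, which is 0.0816 to 0.129 CPM depending on the library. This limit covers counting error only, since reads amplified by PCR carry no molecular identifiers here and are not separate molecules. Of the 160 S phase values (16 genes in 10 libraries), 22 were 0 (13.8%) and 125 rested on at least 100 counts. Of the 190 G2 and M values, 84 were 0 (44.2%) and 66 rested on at least 100 counts. Between these lay 13 S phase values, of which 3 were at 4 to 9 counts, 6 at 10 to 49 and 4 at 50 to 99. In G2 and M genes 40 values lay between, with 3 at 1 to 3 counts, 5 at 4 to 9, 14 at 10 to 49 and 18 at 50 to 99. Values of 1 to 9 counts were thus few in both phases. All in all 12 of the 16 S phase genes and 2 of the 19 G2 and M genes, Cdk1 and Cenpf, had counts in every library.

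A few members had counts in few libraries or stayed near the floor. Ccne1, one of the cyclins that bring cells into S phase, had 0 counts in all 10 libraries. Mki67, which encodes the proliferation antigen Ki-67, had 31 counts in heterozygous replicate 4, 2 in heterozygous replicate 2, 1 in wild-type replicate 2 and 0 in the other 7 libraries. It had 0 counts in wild-type replicate 3, where Top2a had 1589. Kif11, a motor that separates the spindle poles, reached at most 0.249 CPM. Bub1, a checkpoint kinase, was seen in wild-type replicate 3 alone, at 3.39 CPM. These values are levels in whole sorted populations, in which fewer cells in cycle and less RNA per cell cannot be told apart.

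**Figure D2:**
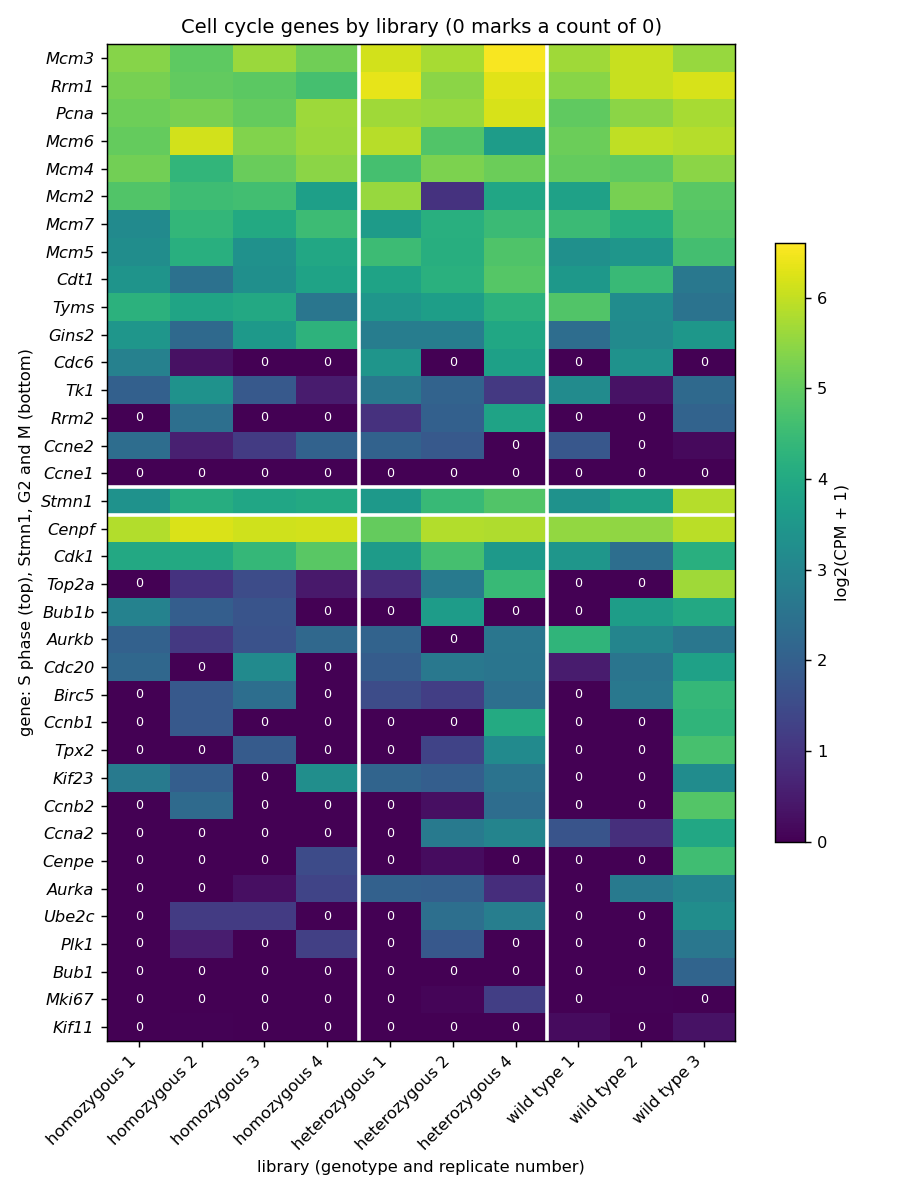
Level of each of the 36 genes in each library as log2(CPM + 1), with S phase genes at the top, Stmn1 in the middle and G2 and M genes at the bottom; a printed 0 marks a count of 0. S phase genes are mostly filled across all libraries (22 zeros in 160 values), while G2 and M genes have more zeros (84 in 190 values). Of the 19 G2 and M genes, 18 had a count in wild-type replicate 3. Heterozygous replicates 2 and 4 had 15 and 14, and the other libraries 6 to 12.

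Levels of different genes were compared per kb of exon (GENCODE vM21 lengths). Pcna, the sliding clamp of DNA polymerases, was highest at 18.6 CPM per kb averaged over all libraries, followed by Mcm3 at 14.2, Stmn1 at 10.02, Mcm6 at 9.40 and Mcm4 at 9.28. The median level per kb of the S phase genes, 3.59, was close to the 3.60 of the 13704 tested genes with an exon length. The median of the G2 and M genes was 0.844 CPM per kb, and 0.472 without wild-type replicate 3, while that of the S phase genes was then 3.42. Above the median of the tested genes lay 8 of 16 S phase genes and 1 of 19 G2 and M genes, Cenpf, at 3.63.

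Summed over the 16 S phase genes, the level was 275, 283, 268 and 287 CPM in homozygous replicates 1 to 4, 413, 287 and 436 in heterozygous replicates 1, 2 and 4, and 284, 374 and 380 in wild-type replicates 1 to 3. The means were 278.2 ± 8.57 CPM (SD, n = 4), 378.6 ± 80.4 (n = 3) and 346 ± 53.9 (n = 3). The homozygous libraries lay close together at the low end, and the lowest library of each of the other genotypes lay within their range. Without wild-type replicate 3 the wild-type mean was 329. The number of S phase genes with a count was 13 to 15 in every library.

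The sum over the 19 G2 and M genes was 89.5, 108, 111 and 116 CPM in homozygous, 58.3, 124 and 149 in heterozygous and 77.5, 83.8 and 319 in wild-type libraries. Its mean was 106 ± 11.6 (SD, n = 4), 110.2 ± 46.7 (n = 3) and 160.0 ± 138 (n = 3). Wild-type replicate 3 was far above every other library, and without it the wild-type mean was 80.6 CPM, below the other genotypes. Cenpf and Cdk1 carried most of the sum in every library but heterozygous replicate 4 and wild-type replicate 3. Over the 17 genes that were not in every library, the sum was 17.5 to 22.7 CPM in homozygous, 15.2, 43.7 and 82.3 in heterozygous, and 21.8, 35.5 and 242 in wild-type libraries. The wild-type mean of this sum was 99.9 CPM, and 28.6 without replicate 3. The number of the 19 with a count was 6, 12, 10 and 8 in homozygous, 8, 15 and 14 in heterozygous, and 6, 9 and 18 in wild-type libraries.

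The sample titles carry the letter m or f, which matched the counts of Xist or of Y-linked genes in 10 of 10 libraries. Within each genotype, every f library had a higher G2 and M sum than every m library. The sum was 90.1 ± 23.03 CPM (SD, n = 6) in m and 174 ± 98.1 (n = 4) in f libraries, and 125 ± 20.3 (n = 3) in f libraries without wild-type replicate 3. Among m libraries alone the homozygous sums were 89.5 and 108, the heterozygous 58.3 and 124 and the wild-type 77.5 and 83.8. Among f libraries, homozygous were 111 and 116, and the other genotypes had 1 library each. The only f library of wild type was replicate 3, so that a dependence of the homozygous to wild-type difference on the letter cannot be told apart from that mouse. The m and f difference in the sum was not tested.

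**Figure D3:**
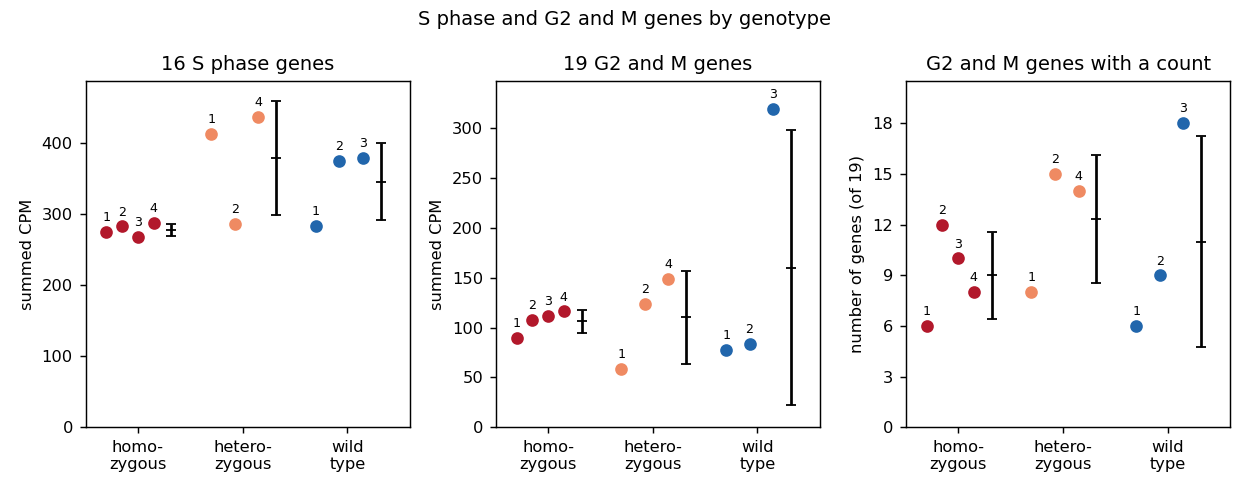
Summed CPM of the 16 S phase genes (left) and of the 19 G2 and M genes (middle), and the number of G2 and M genes with a count (right); each point is a library with its replicate number, and bars are mean ± SD per genotype. Wild-type replicate 3 lies at 319 CPM and 18 genes, while the other wild-type libraries lie at 77.5 and 83.8 CPM and 6 and 9 genes.

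Across the 3 comparisons, no member was called at an adjusted p under 0.05 by edgeR's quasi-likelihood test, fitted on all 14023 tested genes. For homozygous against wild type, 0.0642% of all genes were called, and 2 of the 31 members, Rrm1 and Ccna2, both lower, had an unadjusted p under 0.05, beside 7.52% of all genes. DESeq2 called 1 member, Ccna2, beside 294 of all 14023 genes, and limma-voom 0, beside 10. For heterozygous against wild type, 0% of genes were called and 0 members had an unadjusted p under 0.05, beside 5.82% of all genes. Neither DESeq2, with 236 of all genes called, nor limma-voom, with 0, called a member there. For homozygous against heterozygous, 0.0214% of genes were called, and 3 members (Rrm1, Mcm3 and Ccna2, all lower) had an unadjusted p under 0.05, beside 4.86% of all genes. DESeq2 called 2 of these, Ccna2 and Rrm1, beside 123 of all genes, and limma-voom 0, beside 2. The comparisons share libraries, so their values are set side by side without a measure of likeness.

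The S phase genes begin with the licensing factors, which load the replicative helicase onto origins in G1. Cdc6 and Cdt1 place the MCM2 to MCM7 ring on DNA, and Gins2 is part of the complex that activates it. Mcm3 stood at 41.4, 30.2, 47.5 and 34.9 CPM in homozygous, 70.4, 52.7 and 92.6 in heterozygous, and 49.6, 65.6 and 47.1 in wild-type libraries. The heterozygous libraries were all above the homozygous ones, and the wild-type libraries overlapped with both. The log2 fold change of Mcm3 was -0.49 (SE 0.25, adjusted p = 0.709 in edgeR) for homozygous against wild type, and -0.90 (SE 0.25, adjusted p = 0.985) against heterozygous.

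Mcm7, another subunit of the ring, stood at 7.87, 19.8, 15.1 and 21.9 CPM in homozygous, 11.3, 16.8 and 21.6 in heterozygous, and 21.7, 16.4 and 27.7 in wild-type libraries. All 3 genotypes overlapped, and the log2 fold change of homozygous against wild type was -0.44 (SE 0.43, adjusted p = 0.999 in edgeR). Part of its exons lies opposite exons of Ap4m1 and Cops6. Mcm4 ranged from 19.3 to 43.0 CPM over the 10 libraries and Mcm5 from 8.38 to 26.5. Mcm6 ranged from 11.5 to 69.9 CPM, with its lowest value in heterozygous replicate 4 and its highest in homozygous replicate 2. Mcm2 varied most, from 0.954 CPM in heterozygous replicate 2 to 47.2 in heterozygous replicate 1. Subunits of a single ring thus did not keep a fixed ratio between libraries.

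Cdt1 stood at 4.46 to 13.1 CPM in homozygous libraries, 13.3 to 28.2 in heterozygous libraries and 5.26 to 21.3 in wild type. Homozygous and heterozygous libraries did not overlap, narrowly, while wild type spanned both. Cdc6 had counts in 5 of 10 libraries, 4 of them at 6.46 to 12.5 CPM. Gins2 ranged from 3.81 to 18.3 CPM, but 2758 bases of its exons lie opposite an exon of Gse1. No strand setting of the counting is stated, so reads of such partners may be mixed. Ccne2, the other E cyclin, was at most 4.17 CPM, had counts in 8 libraries, and shares 474 bases with Ints8 on the opposite strand.

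Pcna stood at 34.1, 36.7, 32.1 and 48.4 CPM in homozygous, 49.6, 46.9 and 72.0 in heterozygous, and 30.6, 42.5 and 52.7 in wild-type libraries. The genotypes overlapped, with heterozygous replicate 4 highest. Its log2 fold change for homozygous against wild type was -0.15 (SE 0.27, adjusted p = 0.999 in edgeR) and turned to 0.05 without wild-type replicate 3. For homozygous against heterozygous it was -0.57 (SE 0.26, adjusted p = 1).

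Enzymes of nucleotide supply form the other S phase group. Ribonucleotide reductase makes deoxynucleotides from a large subunit, Rrm1, and a small subunit, Rrm2, while Tyms and Tk1 supply thymidine nucleotides. Rrm1 stood at 36.9, 31.4, 29.7 and 24.2 CPM in homozygous, 80.9, 42.9 and 77.3 in heterozygous, and 42.2, 64.6 and 72.2 in wild-type libraries. All 4 homozygous libraries lay below all 6 others, while heterozygous and wild-type libraries overlapped. The means were 30.5 ± 5.22 CPM (SD, n = 4), 67.1 ± 20.9 (n = 3) and 59.7 ± 15.6 (n = 3).

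The log2 fold change of Rrm1 was -0.97 (SE 0.28) for homozygous against wild type, with an adjusted p of 0.485 in edgeR. Against heterozygous it was -1.13 (SE 0.28, adjusted p = 0.807 in edgeR), and for heterozygous against wild type 0.17 (SE 0.30, adjusted p = 1). Over 19 alternative settings the adjusted p for homozygous against wild type ran from 0.0820 in DESeq2 to 0.817, and the fold change from -1.16 to -0.80. Against heterozygous it ran from 0.0458 in DESeq2, the setting that called it, to 1. Rrm2, the subunit whose level follows S phase, was at 0 in 5 libraries: 3 homozygous and 2 wild-type. Its highest value was 13.2 CPM, in heterozygous replicate 4. Tyms ranged from 4.76 to 27.0 CPM and Tk1 from 0.244 to 9.25, with overlap of all genotypes.

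Over the 15 tested S phase genes, the median log2 fold change of homozygous against wild type was -0.15, beside 0.02 for all genes. The fitted value was below 0 in 13 of 15, beside 48.9% of all genes. Most of these were small against their error, with a median SE of 0.58. Without wild-type replicate 3 the median was -0.12 and 8 of 15 were below 0. For heterozygous against wild type it was 0.23, with 6 of 15 below 0, and for homozygous against heterozygous -0.05, with 9 of 15, beside 0.01 for all genes and 49.1% of all genes below 0 in both. A single S phase gene, Rrm1, had homozygous libraries wholly below wild type. Across both phases this held for 3 members, Rrm1, Ccna2 and Aurkb, beside 3.57% of all genes, and 0 members were wholly above, beside 4.40%. For heterozygous against wild type 1 member, Aurkb, lay wholly but narrowly below, beside 4.16% of all genes, and 0 wholly above, beside 5.43%. For homozygous against heterozygous 3 members, Rrm1, Mcm3 and Cdt1, lay wholly below, beside 3.72%, and 0 wholly above, beside 3.75%.

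The G2 and M genes start with the mitotic kinase Cdk1 and its cyclins. Cdk1 stood at 14.7, 15.2, 20.1 and 29.2 CPM in homozygous, 11.4, 24.0 and 10.7 in heterozygous, and 10.1, 4.25 and 17.0 in wild-type libraries. The genotypes overlapped, and homozygous replicate 4 was highest. Its log2 fold change for homozygous against wild type was 0.92 (SE 0.55, adjusted p = 0.817 in edgeR), opposite in sign to most other G2 and M genes. Without wild-type replicate 3 the value of Cdk1 was 1.46, and only 5 of the 15 tested G2 and M genes were below 0.

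Ccna2, cyclin A2, which acts in S phase and G2, was at 0 in all 4 homozygous libraries. It stood at 0, 5.45 and 6.90 CPM in heterozygous and 2.28, 0.855 and 14.6 in wild-type libraries. Homozygous libraries lay below all wild-type ones, while heterozygous replicate 1 shared their 0. Against a floor of 3 counts over the group, the homozygous level was at least 259.8-fold lower than wild type, and at least 68.8-fold lower without wild-type replicate 3. Against heterozygous it was at least 181-fold lower. These bounds cover counting error only, and edgeR's adjusted p was 0.485 against wild type and 0.985 against heterozygous. DESeq2 gave adjusted p-values of 0.000516 and 0.00246, while over all alternatives they ran up to 0.857 and 1. Part of the Ccna2 exons, 428 bases, lies opposite Exosc9.

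The B cyclins bind Cdk1 to start mitosis. Ccnb1 was at 18.8 CPM in wild-type replicate 3, 15.3 in heterozygous replicate 4 and 2.61 in homozygous replicate 2, and at 0 in the other 7 libraries. Ccnb2 reached 27.3 CPM in wild-type replicate 3, with 4.10 in heterozygous replicate 4 and 3.89 in homozygous replicate 2. Both cyclins were at 0 in wild-type replicates 1 and 2. A pseudogene counted under its own symbol, Ccnb2-ps, had 120 counts in wild-type replicate 3 and 59 in heterozygous replicate 4. It also had 83 in homozygous replicate 3 and 52 in wild-type replicate 2, where Ccnb2 itself was at 0. Reads of the near-identical copies may therefore be split, and the zeros of Ccnb2 in those libraries are uncertain.

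Top2a, the topoisomerase that untangles chromosomes before mitosis, was seen in 7 libraries. It stood at 0, 0.953, 1.90 and 0.362 CPM in homozygous, 0.753, 5.48 and 20.8 in heterozygous, and 0, 0 and 49.4 in wild-type libraries. Wild-type replicate 3 was highest and the other wild-type libraries were among those at 0. Its log2 fold change for homozygous against wild type was -4.35 (SE 2.42, adjusted p = 0.762 in edgeR). Without wild-type replicate 3 the wild-type libraries are all at 0, and the homozygous level was at least 16.7-fold higher than a floor of 3 counts over that group. The direction thus turned with that library.

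The centromere proteins differed from each other. Cenpf, a large kinetochore protein, stood at 55.8, 73.9, 68.5 and 69.4 CPM in homozygous, 31.7, 56.0 and 55.6 in heterozygous, and 45.6, 44.0 and 59.4 in wild-type libraries. The homozygous libraries were mostly high and overlapped narrowly with both other genotypes. The log2 fold change for homozygous against wild type was 0.43 (SE 0.24, adjusted p = 0.771 in edgeR). Cenpe, the kinetochore motor, was at 22.6 CPM in wild-type replicate 3, 1.84 in homozygous replicate 4 and 0.154 in heterozygous replicate 2, with 0 in the other 7. In homozygous replicate 1, Cenpf had 1539 counts while Top2a, Mki67 and Cenpe had 0.

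The mitotic kinases mark and move chromosomes. Aurkb, the kinase of the chromosomal passenger complex, stood at 3.12, 1.14, 2.19 and 3.68 CPM in homozygous, 3.26, 0 and 5.05 in heterozygous, and 18.97, 7.06 and 5.10 in wild-type libraries. Unlike most G2 and M genes it was highest in wild-type replicate 1. Wild type lay above both other genotypes, but only narrowly above heterozygous (5.10 against 5.05 CPM). The log2 fold change of homozygous against wild type was -2.03 (SE 1.41, adjusted p = 0.914 in edgeR). Heterozygous against wild type gave -1.91 (SE 1.55, adjusted p = 1). Birc5 (survivin), from the same complex, reached 20.1 CPM in wild-type replicate 3 and at most 5.22 elsewhere. Aurka, which builds the spindle poles, had at most 6.999 CPM and Plk1 at most 5.10, both in wild-type replicate 3.

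Of the spindle proteins, Tpx2 was at 24.5 CPM in wild-type replicate 3 and at most 7.98 in any other library. Kif23, a motor of the central spindle, was highest in homozygous replicate 4 at 8.65 CPM and reached 8.31 in wild-type replicate 3. Bub1b, a spindle checkpoint protein, had 14.9, 11.8 and 11.5 CPM in wild-type replicates 3 and 2 and heterozygous replicate 2, and was at 0 in 4 libraries. Cdc20 and Ube2c drive the anaphase-promoting complex, which ends mitosis. They reached 12.6 and 8.34 CPM in wild-type replicate 3, and Ube2c was at 0 in the other wild-type libraries.

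Stmn1 had counts in every library, at 9.21, 16.2, 14.1 and 14.97 CPM in homozygous, 10.8, 20.7 and 27.0 in heterozygous, and 9.32, 12.98 and 57.3 in wild-type libraries. It was highest in wild-type replicate 3, and the other libraries overlapped between genotypes. The log2 fold change of homozygous against wild type was -0.96 (SE 0.61, adjusted p = 0.859 in edgeR), and 0.29 without that library.

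Wild-type replicate 3 was the highest library for 14 of the 19 G2 and M genes and for Stmn1, but for 2 of the 16 S phase genes, beside 12.2% of all tested genes. Where it was highest in a G2 and M gene with a value elsewhere, it exceeded the next library 1.23-fold to 12.3-fold. Of the 19, 9 were at 0 in both other wild-type libraries. Heterozygous replicate 4, the library with the fewest counts, was highest for 6 of the 16 S phase genes, beside 11.4% of all tested genes. Further G2 and M genes, 60 outside the 36, also had most members with a count in wild-type replicate 3, 48, against 22 to 41 in the other libraries. Their summed level was 1043 CPM there and 651 to 919 elsewhere. The 44 other S phase genes also had their highest sum in that library, at 623 CPM against 398 to 549. Of these 44, 39 had a count there, against 26 to 37 in the other libraries, and 10 were highest there.

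Over the 15 tested G2 and M genes, the median log2 fold change of homozygous against wild type was -2.19, with 12 of 15 below 0 and a median SE of 2.42. Without wild-type replicate 3 it was 1.46, with 5 of 15 below 0. For heterozygous against wild type the median was -0.85, and 1.39 without that library. For homozygous against heterozygous, which does not use wild-type libraries, it was -0.57, with 12 of 15 below 0 and a median SE of 2.34, and -0.02 without heterozygous replicate 4. Against wild type the direction of the G2 and M median thus turned without a single mouse. In the heterozygous to wild-type comparison it also turned with all libraries kept, to 0.40 in limma-voom (6 of 15 below 0) and 0.80 with the replicate number as a block (5 of 15).

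**Figure D4:**
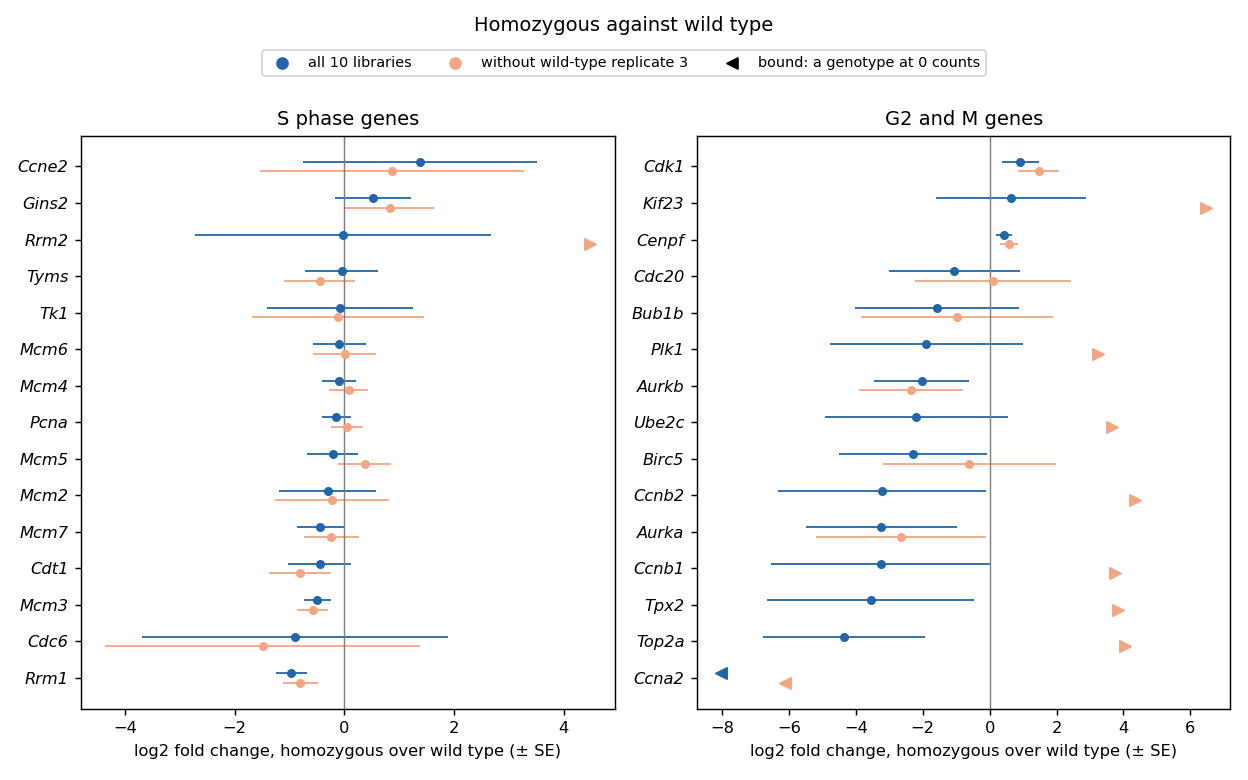
Fitted log2 fold change (± SE) of homozygous over wild type for the tested S phase (left) and G2 and M genes (right), with all libraries (blue) and without wild-type replicate 3 (orange); triangles are bounds where a genotype had 0 counts. The S phase median is -0.15 and -0.12, while the G2 and M median turns from -2.19 to 1.46.

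Markers of several other cells were also high in wild-type replicate 3, while those of others were not. The summed level of 11 microglia markers was 19460 CPM there and 9879 to 15721 in the other libraries, and Tmem119 was at 824 CPM against at most 511. For 11 B cell markers the sum was 780.0 against 267 to 689. For 10 monocyte markers it was 276 against 21.9 to 200.2, and for 12 neuronal and glial markers 217 against 67.3 to 179.9. The 8 dendritic cell markers summed to 363 CPM against 164 to 331, and 10 stromal and endothelial markers to 15.7 against 0.646 to 14.4. The 7 blood progenitor markers, at 248 CPM against 134 to 282, and the 12 T and NK cell markers, at 206 against 135 to 254, were within the range of the other libraries. Of the progenitor markers Cd34, which is also found on endothelium, was nonetheless highest there, at 88.6 CPM against at most 27.6. Flt3 was also highest there, at 0.684 CPM against at most 0.331. Of the 7 progenitor markers 1 was at 0 in that library, against 2 to 4 in the others. Among endothelial markers Pecam1 was highest there, at 4.51 CPM against at most 0.753, while Cdh5 and Cldn5 were at 0. The 9 B cell precursor markers summed to 45.9 CPM against 18.8 to 45.2, with 4 of 9 at 0 throughout, and Vpreb3 was seen in wild-type replicate 3 alone, at 1.71 CPM. Some defining markers of dividing precursors were absent. Mpo and Elane of neutrophil precursors, Kit of blood progenitors, Igll1, Dntt and Rag2 of B cell precursors, and Klf1 and Gata1 of erythroid cells had 0 counts in all 10 libraries. The 14 neutrophil lineage markers summed to at most 5.10 CPM, with 9 of 14 at 0 throughout. Among them Prtn3, a protease of neutrophil precursors, stood at 4.92 CPM in wild-type replicate 3, 3.77 in wild-type replicate 1 and at most 1.98 elsewhere. The 11 erythroid markers summed to 291 CPM in wild-type replicate 3 and 110.3 to 1032 elsewhere. The part of these cells in the G2 and M values was not tested.

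Other cell cycle genes were read from lists outside the 36, and none of them was called in any of the 3 comparisons by edgeR or limma-voom. The lists held 40 S phase, 45 G2 and M, 16 entry, 22 inhibitor and 4 histone genes that were tested. For homozygous against wild type DESeq2 called 6 of them, Ccnd2, Btg1, Ckap2l and Gtse1 lower and Uhrf1 and Ttk higher. Over all 14023 tested genes DESeq2 called 294 there. It called 3 (Pold3 lower, Uhrf1 and Ttk higher) between heterozygous and wild-type libraries, beside 236 of all tested genes. Between homozygous and heterozygous libraries it called 2 (Gtse1 and Myc, both lower), beside 123 of all tested genes. The list of G1 and cell cycle entry genes had 16 of 19 tested. In homozygous against wild type, 4 of them had homozygous libraries wholly below wild type (Ccnd2, Cdc25a, Cdk6 and Myc), beside 3.57% of all genes, and 1 wholly above (Cdk4), beside 4.40%. The median log2 fold change of the list was -0.12.

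Ccnd2, cyclin D2, which carries cells out of G1, stood at 37.1, 28.4, 35.0 and 28.8 CPM in homozygous, 47.1, 64.1 and 69.2 in heterozygous, and 117, 75.8 and 71.8 in wild-type libraries. The 3 genotypes did not overlap, with heterozygous in between. The log2 fold change was -1.45 (SE 0.23, adjusted p = 0.0866 in edgeR) for homozygous and -0.55 (SE 0.25, adjusted p = 0.791) for heterozygous against wild type. Over 19 alternatives the first adjusted p ran up to 0.445, and DESeq2 alone called the gene. Cdk6, the kinase partner of D cyclins, stood at 10.7 to 14.3, 10.9 to 20.4 and 19.8 to 36.4 CPM, with a log2 fold change of -1.11 (SE 0.37, adjusted p = 0.562 in edgeR) for homozygous against wild type. Myc, a transcription factor that drives cells into cycle, stood at 16.3 to 30.1, 46.0 to 62.7 and 31.6 to 46.6 CPM, with -0.75 (SE 0.27, adjusted p = 0.616 in edgeR) for homozygous against wild type. Against heterozygous the difference was larger, -1.24 (SE 0.27, adjusted p = 0.616 in edgeR), without overlap of the libraries, and DESeq2 called it (adjusted p = 0.0104). Heterozygous libraries were the highest for Myc, with 1 of the 3 below the top wild-type value.

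Beside these genes, the monocyte markers summed to 195 to 276 CPM in wild-type libraries, 87.1 to 107 in heterozygous libraries and 21.9 to 87.4 in homozygous libraries. Ccr2, the chemokine receptor of monocytes, was called lower in homozygous than in wild-type libraries (log2 fold change -4.18, SE 0.36, adjusted p = 0.00216 in edgeR). The microglia markers had 5 of 11 with homozygous libraries wholly below wild type, beside 3.57% of all genes, and 0 wholly above. The CNS-associated macrophage markers lay the other way, with 7 of 12 wholly above wild type, beside 4.40% of all genes, and 1, Mrc1, wholly below. Of these Lyve1, a receptor of perivascular and meningeal macrophages, was called higher (log2 fold change 0.85, SE 0.10, adjusted p = 0.0215 in edgeR). Whether these cells carry part of the Rrm1, Ccnd2, Cdk6 and Myc values was not tested.

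**Figure D5:**
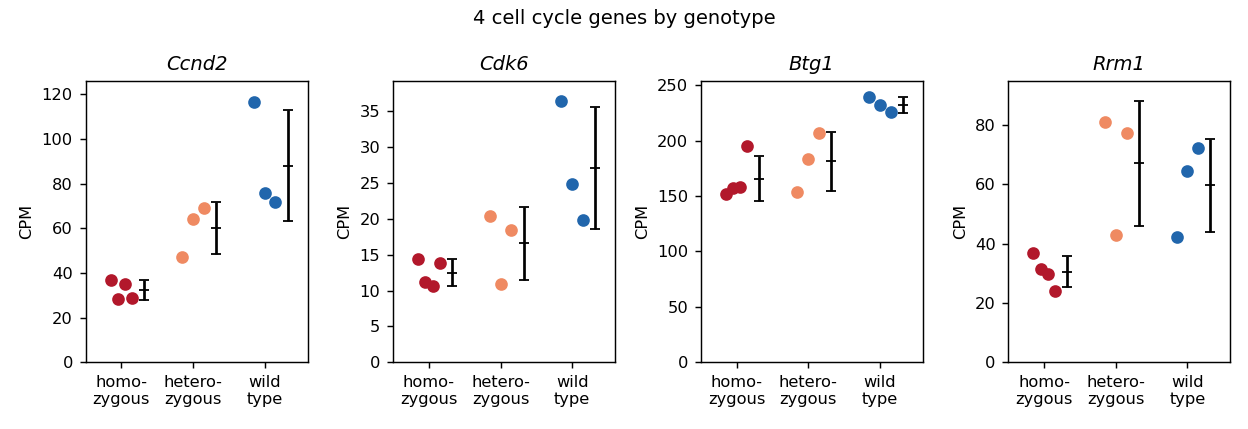
CPM of Ccnd2, Cdk6, Btg1 and Rrm1 in each library by genotype, with mean ± SD. The 4 were among the genes with the smallest p of their lists in homozygous against wild type. For each gene all homozygous points lie below all wild-type points, beside 3.57% of all genes. For Ccnd2 and Rrm1 they also lie below all heterozygous points. Cdk4, from the list of Ccnd2 and Cdk6, lay wholly above wild type and is not shown. None of the 4 was called by edgeR. DESeq2 called Ccnd2 and Btg1 lower in homozygous than in wild-type libraries and Rrm1 lower than in heterozygous libraries.

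Inhibitors of the cycle were tested for 22 of 22 genes, with a median log2 fold change of -0.01 for homozygous against wild type and 11 of 22 below 0. Btg1, an antiproliferative factor, stood at 152 to 195, 154 to 207 and 225 to 239 CPM, wild type being above both other genotypes. Its log2 fold change was -0.49 (SE 0.13, adjusted p = 0.439 in edgeR) for homozygous against wild type, and DESeq2 called it (adjusted p = 0.0456). Over the alternatives its adjusted p ran from that value to 0.728. Btg2, its relative, gave -0.48 (SE 0.21, adjusted p = 0.654). Cdkn2b, an inhibitor of Cdk4 and Cdk6, had 0 counts in all wild-type and at most 4.06 CPM in homozygous libraries.

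Of 44 other S phase genes, 40 were tested and the median log2 fold change was -0.46 for homozygous against wild type, or 0.00 without wild-type replicate 3. Pold3, a subunit of a replicative polymerase, had -0.92 (SE 0.35, adjusted p = 0.629 in edgeR), with 33.3 to 57.0 CPM in homozygous and 37.2 to 110.4 in wild-type libraries. Uhrf1, which maintains DNA methylation at replication, was at 0 in all wild-type libraries and at up to 6.48 CPM in homozygous ones. Dtl had at most 0.0544 CPM in homozygous libraries and 4.49, 0 and 3.39 in wild-type replicates 1 to 3. Of 60 other G2 and M genes, 45 were tested, with a median of -0.26, or 0.66 without wild-type replicate 3 (0.83 with genes at 0 set to their bounds). Ckap2l and Cdca2 were at 0 in all homozygous libraries and in wild-type replicate 1. They stood at 9.65 and 7.24 CPM in wild-type replicate 2 and at 17.1 and 8.09 in wild-type replicate 3. Kif20b had the opposite pattern, with 0 in all wild-type libraries. Of 9 replication-dependent histone genes present by symbol, 4 were tested, with a median of 0.17. H4c4 stood at 17.8 to 69.6 CPM in homozygous and 21.9 to 32.2 in wild-type libraries, and H2bc4 and H2ac8 also overlapped.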

How the data were processed

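The authors deposited whole-number read counts per gene symbol for all 10 libraries in 1 table. The submitters' processing notes name bcl2fastq 2.20, STAR 2.7.8a and featureCounts 2.0.2, and no source used here states the genome build, the annotation or the strand setting of the counting. Libraries were made with the SMARTer Ultra Low Input and Nextera XT kits, per the labels' protocols.

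From the deposited counts, filterByExpr by genotype (count at least 10, summed count at least 15) kept 14023 genes. These were scaled with TMM and tested with edgeR 4.0.16 in R 4.3.3, by the robust quasi-likelihood test with all libraries and no term but genotype. Benjamini-Hochberg adjustment ran over all tested genes, and a gene was called under 0.05. An SE is the log2 fold change over the square root of F. Sums, means and detection counts use all members, with no filter. The code was tested on simulated counts, with 13147 genes run and 100 genes changed 2-fold and 100 changed 4-fold in homozygous libraries. For homozygous against wild type edgeR recovered 12% and 30% of these, with 0 of 42 calls false. DESeq2 recovered 29% and 46%, with 97 of 172 calls false.

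The 36 members, their phases, the other lists and the motifs were chosen with earlier results of these data known. Values in every library are given for the 3 members of each phase with the smallest p in homozygous against wild type, the 3 of each phase with the highest mean CPM, any member called, Mki67, Top2a and Stmn1, and values are given for the 3 genes of each other list with the smallest p. Other genes named were chosen after their values were seen. The settings varied were the scaling (DESeq2 size factors), the count filter (none, or 1 CPM in at least 3 libraries with a mean count over 10), the tool (DESeq2 1.42.0 or limma-voom, limma 3.58.1), robust estimation, a term for the title letter or the replicate number, the genotypes in the fit, and each library in turn. Sums were repeated with other scalings and without the gene of highest mean CPM. Exon lengths and overlaps come from GENCODE vM21 and promoters from RefSeq on GRCm38.p6, matched by symbol. No promoter was held for Ccne2, Mcm4, Gins2, Ccna2, Aurkb, Tpx2 or Stmn1. A test of whether the homozygous to wild-type difference depends on the title letter is not reported, since wild type had 1 f library. The value of 1 marker gene is not reported here.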

Additional observations from a re-analysis of the deposited data

Results flagged for a closer look

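In 8 of 38 gene or sum values checked, 1 homozygous library stood far from the other 3, judged by the gap to the nearest as a share of the range (Dixon's test); chance gives this in about 1 in 20 groups of 4. Most of these are genes at 0 in the other libraries, so that any count sets the range. Replicate 2 was high for Ccnb1 (2.61 CPM), Ccnb2 (3.89 CPM), Rrm2 (4.33 CPM) and Kif11 (0.0272 CPM, a single count), each with 0 in the other homozygous libraries. Replicate 4 was high for Cenpe (1.84 CPM, the others at 0) and Aurka (1.57 CPM, the nearest at 0.205). Replicate 3 was high for Tpx2 (2.75 CPM, the others at 0), and replicate 1 for Cdc6 (6.46 CPM, the nearest at 0.218). No more than 4 of the 8 came from the same mouse.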

How the results depend on the processing

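No member was called in any comparison under any edgeR or limma-voom setting run, or with any library left out. DESeq2 called 1 member (Ccna2) for homozygous against wild type and 2 (Ccna2 and Rrm1) for homozygous against heterozygous. Over all genes, DESeq2 called 294 for homozygous against wild type, 236 for heterozygous against wild type and 123 for homozygous against heterozygous, where edgeR called 9, 0 and 3. The title letter as a term gave 17 for the first and 1 for the last, a fit on only the genotypes compared gave 2 and 1, no robust estimation gave 1 for the last, and leaving out a library gave 2 to 12 and 1 to 2. The replicate number as a block gave 1 and 1. Same-numbered libraries did not vary together (r -0.052 to 0.0962, 0 of 8 pairs over 0.1, 3 libraries nearest to their own number), so the numbers are not taken to pair mice. The S phase sum without Mcm3 was 239.7 CPM in homozygous and 292 in wild-type libraries. The G2 and M sum without Cenpf was 39.3 in homozygous and 62.4 in heterozygous libraries, and without Cenpf and Cdk1, a choice made after seeing the data, 19.5 and 47.1. Of the alternative values of single-gene fold changes, 21 had the opposite sign and 488 the same sign and call. For homozygous against wild type, leaving out a library gave -0.33 to 0.048 for Pcna, -1.36 to 0.29 for Stmn1 and -5.20 to 7.66 for Top2a, each turning without wild-type replicate 3. For heterozygous against wild type it gave -2.39 to 11.14 for Top2a and -0.85 to 0.81 for Stmn1, which turned without that library, -1.11 to 1.39 for Ccna2 and -0.19 to 0.16 for Cenpf, which also turned without heterozygous replicate 1 (0.062 and 0.16), and -0.032 to 0.41 for Rrm1, which turned without wild-type replicate 1. The Top2a values without wild-type replicate 3 are no bounds, since wild type is then at 0. For homozygous against heterozygous it gave -0.24 to 0.21 for Mcm7, which turned without homozygous replicate 1 (0.20) or 3 (0.011) or heterozygous replicate 4, and Mcm7 was 0.021 in limma-voom. Top2a was 0.55 in limma-voom and 0.99 with the replicate block for homozygous against wild type, and 4.04, 6.12 and, with the title letter, 1.25 for heterozygous against wild type. There, Ccna2 was 0.086 with the title letter and Stmn1 0.10 with the block. The G2 and M median for homozygous against wild type was -1.03 with the title letter, -0.69 with the block and -1.56 in limma-voom. For heterozygous against wild type it was -0.05, 0.80 and 0.40, turning sign in the last 2, and for homozygous against heterozygous -0.63, -1.29 and -1.87. In limma-voom the median of all genes for homozygous against wild type was 0.10, and 0.02 in edgeR. The cause of these shifts was not tested. A count of 0 limits single genes at 0.0816 to 0.129 CPM.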
